A study of Homo sapiens with 6 samples.

Results

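SPI1, RUNX1, GFI1, GFI1B, MYB, LMO2, FLI1, ETV6, GATA2 and TAL1 are 10 transcription factor and cofactor genes of blood cells outside the C/EBP family, taken by gene symbol from the 18086 symbols in the peak lists. The rule that names them uses no measured value. The cells were HL-60, a human promyelocytic leukaemia line labelled as myeloblast, either parental or knocked out for JMJD3 (labelled JMJD3 KO), and both were grown in DMEM with serum and no named treatment. Histone H3 trimethylated at lysine 4 (H3K4me3) and at lysine 27 (H3K27me3) was mapped by chromatin immunoprecipitation and sequencing, with 1 library per genotype and mark. How the knockout was made, and whether it is 1 clone or a pool, is not stated in the labels. The antibody label of the H3K27me3 libraries names H3K4me3, so that mark was taken from the titles.

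These factors decide between stem cell, myeloid, erythroid and lymphoid programmes. SPI1 (PU.1), RUNX1 and MYB drive early myeloid development, GFI1 and GFI1B are repressors that share a DNA-binding specificity, and GATA2, TAL1 and LMO2 work together in one complex in progenitor cells. H3K4me3 lies around the starts of genes that are active or poised, and H3K27me3 is laid down by Polycomb complexes on repressed genes. JMJD3, encoded by KDM6B, removes methyl groups from lysine 27. The files give positions of called peaks, without read counts or peak heights, so a width below is the extent of called H3K4me3 and says nothing of its height, and depth is unknown.

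Whole lists differed between the genotypes, which bears on every width below. The H3K4me3 list held 33470 peaks over 17.5 Mb in parental and 24943 peaks over 8.29 Mb in knockout cells, with median peak widths of 359 and 260 bp, and the H3K27me3 lists held 3578 and 3234 peaks. Peak lists give no check of the deletion itself. Of 12 granulocyte and myeloblast marker genes, 9 had promoter H3K4me3 in the parental list and 7 in the knockout list. MPO, the granule enzyme myeloperoxidase, had 5524 and 2550 bp, whereas ELANE, AZU1 and LYZ, genes of other granule proteins, had no promoter peak in either. Of 12 erythroid and megakaryocyte markers 1 and 2 were marked, and of 10 lymphoid markers 4 and 2, none of those 4 over 600 bp. Any peak list names just 5 of these 12 and 6 of these 10 genes, but all 12 granulocyte and myeloblast markers. For the 18086 listed genes the share with promoter H3K4me3 was 71.3% in the parental and 62.9% in the knockout list. Unlisted genes are left out of that share, so it has another base than the counts out of 12 erythroid and 10 lymphoid markers.

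All 10 genes carried promoter H3K4me3 in the knockout list and 9 in the parental list, the exception being TAL1. A gene was counted as marked where a peak centre lay at most 5 kb from one of its listed transcript starts, or where a peak spanned a start. The parental list marked 71.3% of all genes, the knockout list 62.9% and both lists 61.9%, against 9 of the 10 here. All genes means the 18086 symbols with a peak of either mark within 20 kb in any of the 4 lists. Genes without such a peak are not counted, and TAL1 is counted only through its knockout H3K4me3 peaks. None of the 10 was marked in the parental list alone, as 9.45% of all genes were. In all 9 the summed width of promoter peaks was smaller in knockout cells, as it was in 95.9% of all genes marked in both, while 4.05% of these were wider. It was smaller by at least 2-fold in 7 of the 9, compared with 50.6% of all genes. With peaks up to 500 bp apart joined it was 4 of 9 against 47.4% of all genes, and with lists of equal covered length (only the widest parental peaks kept) 1 of 9 against 24.6%, so a larger share than among all genes did not hold under these settings. Their median log2 ratio of knockout over parental width was -1.16 (range -1.72 to -0.61), beside -1.01 for the 11190 genes marked in both lists (quartiles -1.49 and -0.61). With 1 library per genotype no difference has a replicate check, and no test is given.

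Most of the 10 had a large summed promoter width. The sum runs over all listed starts of a gene, so it can grow with their number, and 7 of the 10 genes have more than 1. In parental cells RUNX1 had the largest sum with 7578 bp, followed by GFI1 with 7269, GATA2 with 5576, MYB with 5358, LMO2 with 4046, SPI1 with 3908, ETV6 with 3333, FLI1 with 2159 and GFI1B with 1983 bp. RUNX1 leads only as a sum over 2 promoters far apart, of 4748 and 2830 bp, neither as wide as the region of GFI1. The median of all marked genes was 1552 bp, and 7 of the 10 were wider than 90% of marked genes. In knockout cells RUNX1 (3734 bp, the sum of 2814 and 910 bp) and GFI1 (3470 bp) still led. SPI1 (2554 bp) and LMO2 (2426 bp) now preceded GATA2 (2180 bp) and MYB (2101 bp). ETV6 had 1015, FLI1 969, GFI1B 716 and TAL1 382 bp there, where the median of marked genes was 810 bp and 6 of the 10 were wider than 90% of them. Without replicates it cannot be said which neighbours in either order differ beyond their spread.

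**Figure D1:**
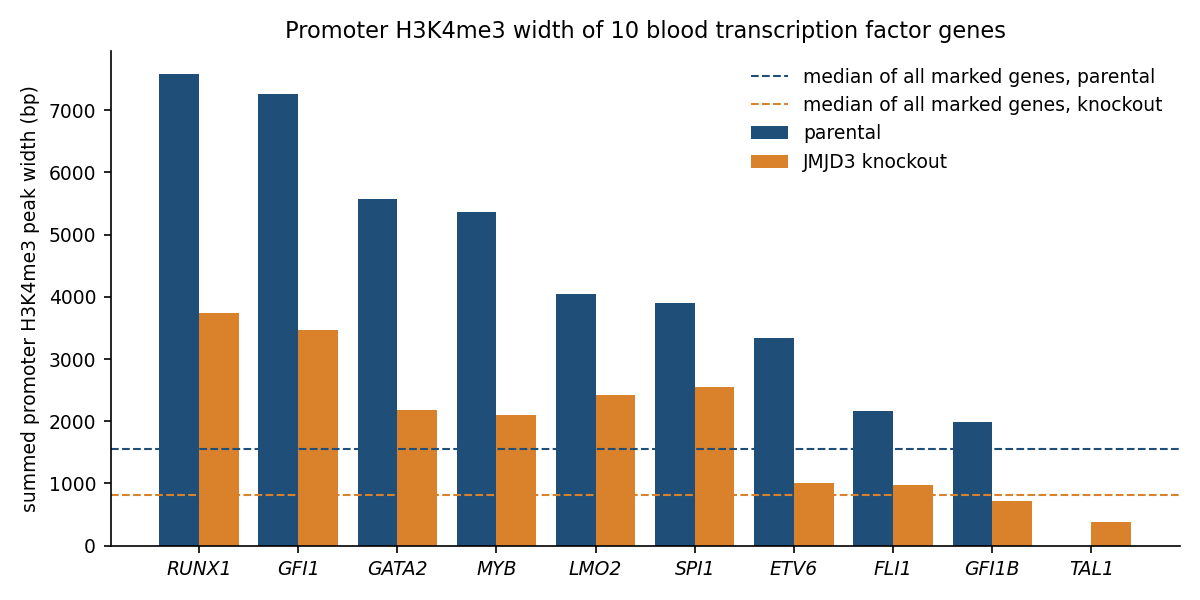
Summed width in bp of promoter H3K4me3 peaks of each of the 10 genes, parental (blue bars) and JMJD3 knockout (orange bars), 1 library each with no error bars; dashed lines are the medians of all marked genes, 1552 and 810 bp. The parental bar is the taller in 9 genes, and TAL1 has a bar of 382 bp in knockout cells only.

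SPI1 encodes PU.1, the ETS factor of macrophages, granulocytes and B cells. Its start (chr11:47400127, hg19) was covered in parental cells by a peak of 1794 bp, and a second peak of 2114 bp lay from 1891 to 4005 bp downstream of the start. In knockout cells the same stretch held 5 shorter peaks of 172 to 775 bp, 2554 bp in all, and the nearest of them began 306 bp downstream. The log2 ratio was -0.61, the least negative of the 9 genes within 5 kb, and 74.6% of all genes had a lower one. This place depends on the window. For peaks centred within 1 kb the values were 1794 and 529 bp and the ratio -1.76. That is more negative than at RUNX1 (-0.94) and LMO2 (-0.27). With peaks up to 500 bp apart joined, the values within 5 kb were 4035 and 3603 bp, a log2 ratio of -0.16. The knockout peaks lay almost wholly inside the parental ones (97.9% of their bp), and 64.0% of the parental bp was kept, the largest share among the 9. SPI1 also had H3K4me3 far from its start: parental peaks of 1529 and 623 bp between positions -17027 and -14771 from the start, and knockout peaks of 538, 158 and 265 bp in the same stretch. SPI1 is known for a distal upstream enhancer in blood cells, and whether these peaks lie on it was not tested. They are nearer to the start of MIR4487, and a further pair of small peaks in each genotype about 18 kb downstream is nearer to that of MYBPC3.

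ETV6, an ETS-family repressor that is a frequent partner in leukaemia gene fusions, had the lowest ratio of the 9 within 5 kb. Around its single listed start (chr12:11802787) 9 parental promoter peaks spanned 3333 bp in all, the widest 1047 bp, and 4 knockout peaks 1015 bp, the widest 359 bp. The log2 ratio was -1.72, and 17.7% of all genes had a lower one. It was -2.59 with peaks of at least 300 bp and -0.86 with lists of equal covered length. MYB was lower than ETV6 with lists of equal length or equal covered length, GATA2 with each peak given to its nearest gene, and both with a window of 1 kb. All 3 parental peaks upstream of the start, of 173, 321 and 187 bp, had no counterpart in the knockout list, so that 79.6% of parental and 100% of knockout bp lay downstream. For genes with 1 listed start the median share downstream was 72.8% in parental (7100 genes) and 79.5% in knockout cells (6274 genes). Just 16.7% of the parental bp at ETV6 was also called in knockout cells, the smallest share of the 9 genes, where the median over all genes was 41.8%.

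FLI1, the ETS factor of megakaryocytes and endothelium, has 2 listed starts, and H3K4me3 lay at the downstream one (chr11:128563810). Peaks of 866, 810, 235 and 248 bp, from 241 to 3131 bp downstream of it, stood in parental cells. Knockout cells had peaks of 578, 202 and 189 bp from 1085 to 2895 bp downstream, so the part nearest to the start was no longer called. The summed width went from 2159 to 969 bp, a log2 ratio of -1.16. These peaks are listed also for SENCR, a non-coding gene, and 1293 of the parental and all 969 of the knockout bp lay nearer to its start. One more knockout peak, of 320 bp, lay 19095 bp downstream and overlapped no parental peak. The upstream start (chr11:128556429) had no peak within 1 kb in either genotype.

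RUNX1, the core binding factor subunit that binds DNA, is known for a distal and a proximal promoter, which lie far apart. Both were marked. At the downstream start (chr21:36260987) H3K4me3 within 5 kb covered 4748 bp in the parental list and 2814 bp in the knockout list (log2 ratio -0.75). At the upstream start (chr21:36421595) the values were 2830 and 910 bp (log2 ratio -1.64). Within 5 kb the upstream promoter thus lost the larger share of its width. Within 1 kb the order was the reverse: 526 and 413 bp at the upstream start, and 1175 and 240 bp at the downstream start. All peaks at the upstream start lay downstream of it, in the parental list from 474 to 3841 bp and in the knockout list from 169 to 3038 bp. They are listed also for RUNX1-IT1, a transcript within RUNX1, whose start lies farther away than that of RUNX1. At the downstream start the widest knockout peak, of 976 bp, lay 3752 to 4728 bp past the start, beneath the widest parental peak of 1322 bp, 3607 to 4929 bp past it. Over both promoters the width went from 7578 bp in 14 peaks to 3734 bp in 11 peaks, a log2 ratio of -1.02, close to the median of all genes. It was -0.21 with lists of equal covered length.

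MYB, needed for the growth of immature blood cells, changed from 4 broad promoter peaks to 7 short ones. The parental peaks measured 940, 1390, 1005 and 2023 bp, from position -1230 to 4965 from the start (chr6:135502452). The knockout peaks measured 171 to 618 bp and summed to 2101 bp, against 5358 bp in parental cells, a log2 ratio of -1.35. Of the knockout bp, 92.5% lay inside parental peaks. Close to the start the difference was larger: peaks with their centre within 1 kb summed to 2330 bp in parental cells and to 427 bp without JMJD3, and the log2 ratio was -2.45. With peaks up to 500 bp apart joined the difference was smaller, 6195 against 4039 bp, a log2 ratio of -0.62. The widest peak in each genotype lay in the gene body, from 2942 to 4965 bp past the start in parental cells and from 3733 to 4351 bp in knockout cells. Farther in, between 5 and 20 kb, 8 parental and 7 knockout peaks of 146 to 417 bp were scattered along the gene.

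GFI1, a zinc-finger repressor needed by neutrophil precursors, has 3 listed starts (chr1:92952433, 92951628 and 92949356, in the order of transcription) under one broad region. In parental cells a peak of 2710 bp, the widest of any of the 10 genes, spanned the most downstream start, and another of 831 bp spanned the most upstream one. In knockout cells the widest peak was 585 bp, a peak of 333 bp still spanned the most upstream start, and no peak spanned the other starts. The number of promoter peaks hardly changed, from 10 to 11, while their summed width went from 7269 to 3470 bp. The log2 ratio was -1.07 (-1.79 with a window of 1 kb and -0.52 with lists of equal covered length). With peaks up to 500 bp apart joined, the widths were 8333 and 5042 bp, a log2 ratio of -0.72. The knockout list thus held a row of short peaks where the parental list held peaks of 2710, 1426 and 831 bp, and 85.8% of knockout bp lay inside parental peaks.

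GFI1B, the relative of GFI1 in erythroid and megakaryocytic cells, had the narrowest parental region among the 9 and no peak centre within 1 kb of a start in knockout cells. Near the upstream start (chr9:135820931) 4 parental peaks of 146, 227, 1095 and 331 bp all lay upstream, the closest ending 175 bp before the start. The knockout peaks, of 299 and 417 bp, lay beneath the peak of 1095 bp, at least 1078 bp from the start. A parental peak of 184 bp lay 507 bp before the downstream start (chr9:135854097), where knockout cells had none. The width went from 1983 to 716 bp, a log2 ratio of -1.47 (-0.61 with lists of equal covered length), but 1468 of the parental and all 716 of the knockout bp lay nearer to the start of TSC1, a tumour suppressor gene transcribed the other way. What was nearest to GFI1B itself went from 515 bp to 0. Both GFI1B promoters are shown because they are poorer in CpG than the starts of GATA2 and TAL1 below, with 6 and 9 CpG where the median promoter has 14. Of their bases 47.3% and 42.3% are G or C, against a median of 58.7%. The sequences here and below are those of RefSeq for GRCh38.p14, 250 bp before to 50 bp after the start, in the direction of transcription. Capitals mark matches on either strand to 5 motifs. GAGGAA, the PU.1 kind of ETS site, is found in 27.9% of the 35116 promoters of that length in the table. Another ETS motif, CGGAAG, is found in 19.5% of them. The motif of GATA factors, written AGATAA, is found in 10.3%. The RUNX motif searched was TGTGGT, found in 13.1%. An E-box of the kind bound by TAL1, written CAGATG, is found in 14.7%.
GFI1B upstream start, chr9:132945281-132945580, plus strand: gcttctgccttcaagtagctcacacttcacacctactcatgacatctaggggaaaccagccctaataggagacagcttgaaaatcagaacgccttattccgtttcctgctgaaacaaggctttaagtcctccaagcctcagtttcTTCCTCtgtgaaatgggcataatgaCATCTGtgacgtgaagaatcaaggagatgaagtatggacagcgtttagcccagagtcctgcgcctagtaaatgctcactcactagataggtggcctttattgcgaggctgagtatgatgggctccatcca
GFI1B downstream start, chr9:132978444-132978743, plus strand: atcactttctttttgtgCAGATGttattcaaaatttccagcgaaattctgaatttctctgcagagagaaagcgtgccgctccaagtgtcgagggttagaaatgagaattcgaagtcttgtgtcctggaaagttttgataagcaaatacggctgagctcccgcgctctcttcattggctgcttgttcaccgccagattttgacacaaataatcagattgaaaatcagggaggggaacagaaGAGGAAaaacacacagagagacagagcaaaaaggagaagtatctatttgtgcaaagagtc
Each of the GFI1B promoters holds 1 match to GAGGAA and 1 to CAGATG. Of 12 promoters of the 7 genes found in the RefSeq table, 7 hold GAGGAA, 2 CGGAAG, 1 AGATAA, 2 TGTGGT and 2 CAGATG. A match is a description of the letters and not evidence of binding.

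GATA2, the GATA factor of stem and progenitor cells and mast cells, kept H3K4me3 downstream of its most upstream start and had none downstream of its other starts in knockout cells. Its listed starts are chr3:128212030, 128207373 and 128206764, in the order of transcription. Around the first, the parental list had 3685 bp of H3K4me3 within 5 kb and the knockout list 2180 bp (log2 ratio -0.76), all downstream of it. The parental region ran on across both other starts, with 2143 and 1761 bp downstream of them, and in knockout cells both values were 0. All 5 knockout peaks lay between 677 bp past the first start and 701 bp before the second, and the widest, 1092 bp, was the single knockout peak of over 1000 bp at any of the 10 genes. Parental cells had 11 peaks of 5576 bp in all, so the log2 ratio over the whole gene was -1.35. It was -2.35 with a window of 1 kb and -0.35 with lists of equal covered length. All of these peaks are listed also for GATA2-AS1, the antisense gene, and 2267 of the parental and 1592 of the knockout bp lay nearer to its start. ChIP does not tell strands apart, so the peaks cannot be assigned to one of the pair. Promoters at the first and, by spacing, the second start are shown because the mark was kept towards one and lost past the other.
GATA2 upstream start, chr3:128493152-128493451, minus strand: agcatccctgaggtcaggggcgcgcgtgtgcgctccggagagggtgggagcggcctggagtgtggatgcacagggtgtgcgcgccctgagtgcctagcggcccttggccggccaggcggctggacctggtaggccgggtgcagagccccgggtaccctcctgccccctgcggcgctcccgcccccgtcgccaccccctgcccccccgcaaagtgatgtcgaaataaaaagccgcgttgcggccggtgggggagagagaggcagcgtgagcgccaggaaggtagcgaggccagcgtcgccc
GATA2 downstream start, chr3:128488481-128488780, minus strand: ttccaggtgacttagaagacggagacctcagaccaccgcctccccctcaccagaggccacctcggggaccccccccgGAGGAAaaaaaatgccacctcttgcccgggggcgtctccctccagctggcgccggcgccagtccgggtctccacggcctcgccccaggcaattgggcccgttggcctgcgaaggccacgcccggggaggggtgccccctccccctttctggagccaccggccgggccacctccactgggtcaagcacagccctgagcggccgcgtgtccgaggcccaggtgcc
The first holds none of the 5 motifs and the second 1 GAGGAA match. They are alike in base composition, with 72.3% and 71.3% G or C. The 2 RefSeq starts are 4671 bp apart, against 4657 bp between the listed starts.

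TAL1, the basic helix-loop-helix factor of the complex, ran against the other 9 genes. It had no H3K4me3 peak within 20 kb of any start in parental cells and 2 peaks in knockout cells. The larger, 236 bp, spanned the most downstream of its 3 starts (chr1:47697387), from 157 bp before it to 79 bp after it. The smaller, 146 bp, lay from 127 to 273 bp after the most upstream start (chr1:47698007). Both are short: 43.2% of knockout peaks were narrower than the first, and the second had the least width found in the list. Their sum, 382 bp, exceeded the promoter width of 18.8% of genes marked in knockout cells. Promoter H3K4me3 in knockout cells only was listed for 0.984% of all genes. If peaks under 300 bp were left out, TAL1 had no promoter H3K4me3 in either genotype. Its promoters are shown because the larger peak lay on the second of them. The smaller peak lies past the end of the first. The 620 bp between the RefSeq starts equal those between the outer listed starts, and the larger peak covers the base positions from 157 before to 50 after the start in the second sequence.
TAL1 upstream start, chr1:47232286-47232585, minus strand: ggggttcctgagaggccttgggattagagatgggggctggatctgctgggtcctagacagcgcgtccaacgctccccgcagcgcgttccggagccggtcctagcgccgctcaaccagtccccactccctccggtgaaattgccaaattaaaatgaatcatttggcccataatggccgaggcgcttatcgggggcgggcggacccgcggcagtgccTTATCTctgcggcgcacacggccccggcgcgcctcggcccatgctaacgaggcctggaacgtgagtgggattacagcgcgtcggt
TAL1 downstream start, chr1:47231666-47231965, minus strand: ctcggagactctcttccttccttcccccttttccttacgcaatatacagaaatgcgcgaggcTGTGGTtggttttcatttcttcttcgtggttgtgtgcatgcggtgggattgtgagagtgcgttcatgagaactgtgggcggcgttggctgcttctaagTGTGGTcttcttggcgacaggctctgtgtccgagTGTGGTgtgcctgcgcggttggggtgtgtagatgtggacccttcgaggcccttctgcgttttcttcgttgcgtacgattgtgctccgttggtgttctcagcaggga
The first holds 1 match to AGATAA and the second 3 to TGTGGT. Their G and C shares are 64.3% and 54.3%, on either side of the median promoter's 58.7%, and the first has 30 and the second 19 CpG.

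LMO2, the LIM-only adaptor that bridges TAL1 and GATA factors without binding DNA, had the least negative ratio within 5 kb after SPI1. Its most upstream start (chr11:33913836) was flanked by 7 peaks in each genotype, which summed to 4046 bp before and 2426 bp after JMJD3 knockout (log2 ratio -0.74). Peaks centred within 1 kb gave 306 and 254 bp (log2 ratio -0.27), and lists of equal covered length turned the direction, with 1348 and 2426 bp (log2 ratio 0.85). The widest peak was 1348 bp in parental cells, from 980 to 2328 bp past the start, and 833 bp in knockout cells, from 1934 to 2767 bp. A knockout peak of 254 bp, 50 bp before the start, overlapped no parental peak, while the nearest parental peak lay 311 bp past it. The other starts (chr11:33891509 and 33891371) had no peak within 1 kb in either genotype. GATA2, LMO2 and TAL1, the partners in one complex, had log2 ratios of -1.35 and -0.74 and a gain from 0 to 382 bp.

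**Figure D2:**
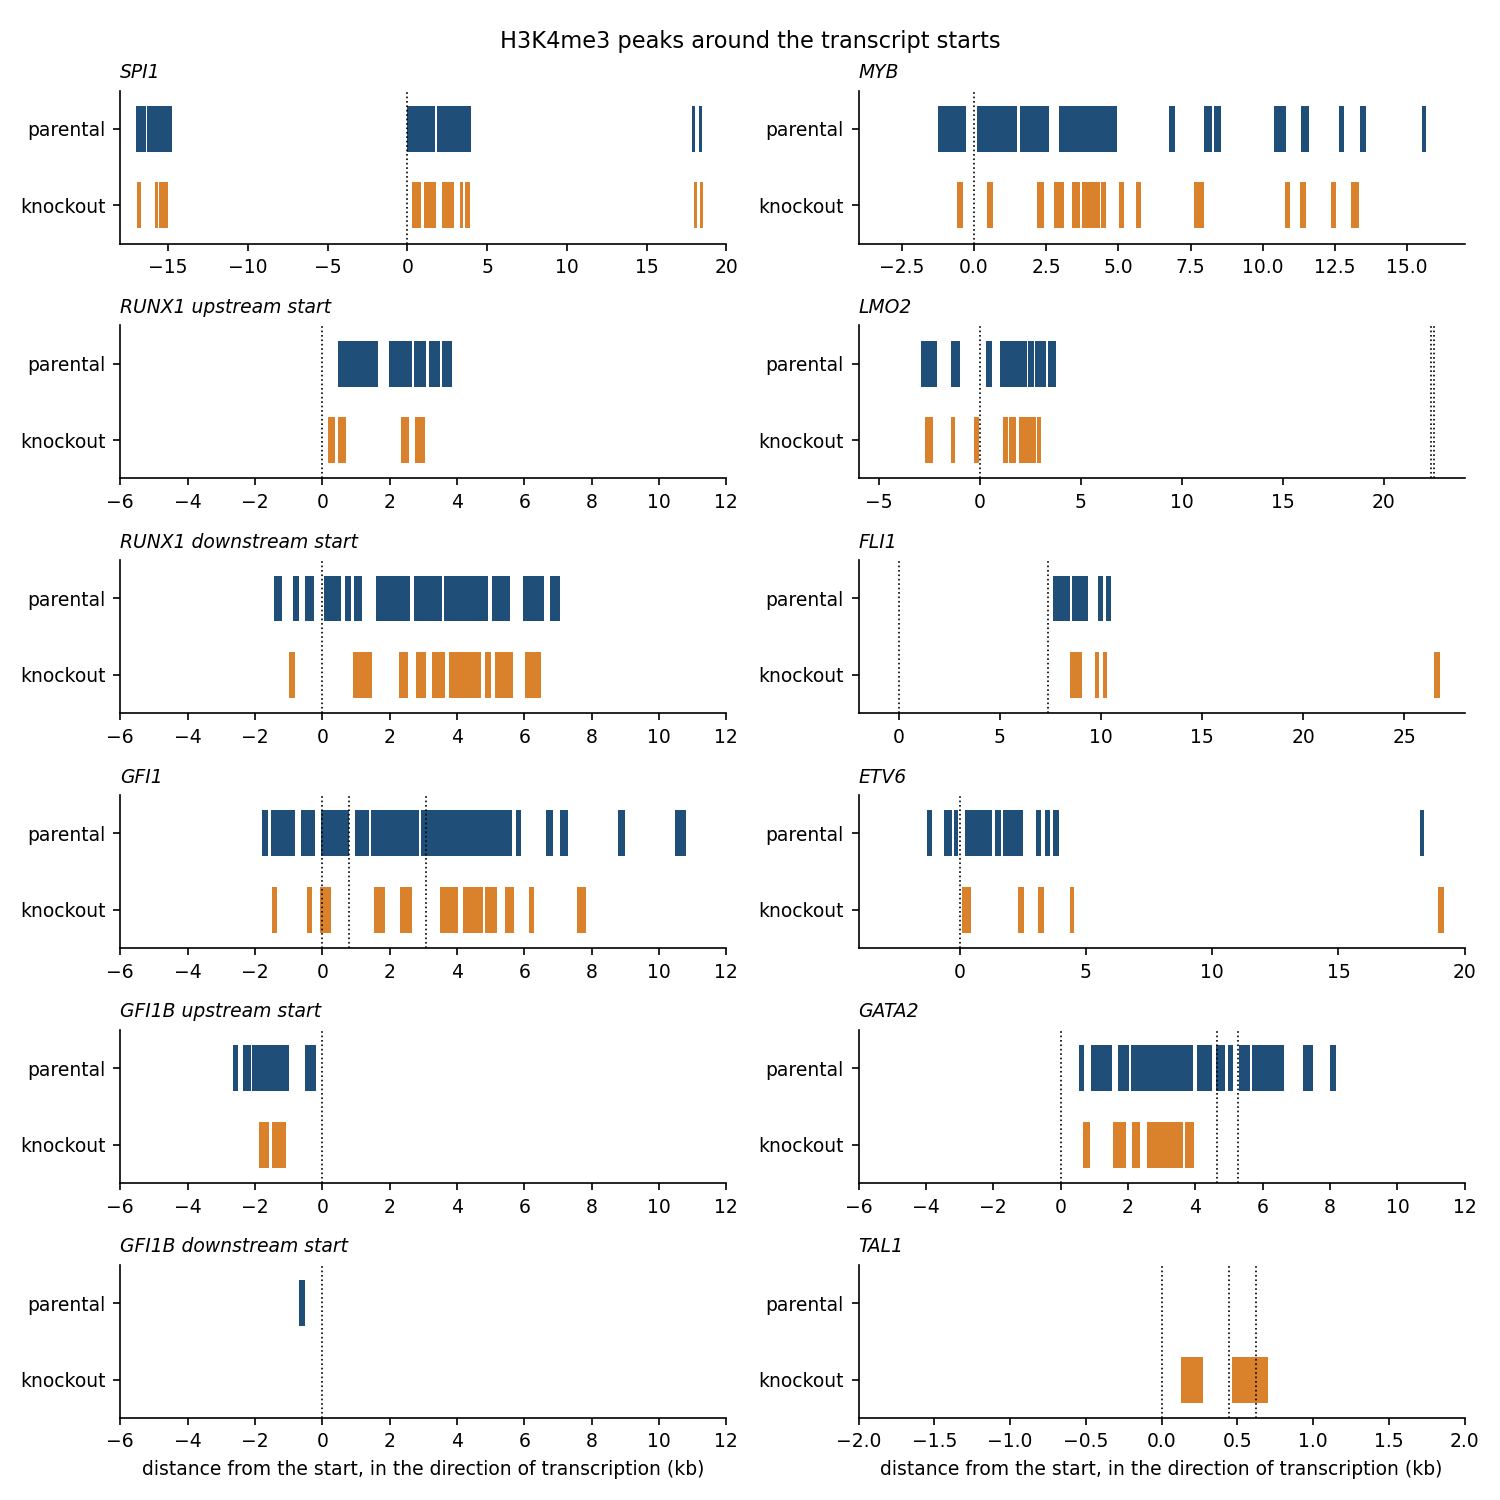
Called H3K4me3 peaks as blocks, to scale, for parental (blue, upper row) and JMJD3 knockout cells (orange, lower row) in 12 panels; the x axis is the distance in kb from the most upstream start drawn, in the direction of transcription, with its own range in each panel, and dotted lines are listed starts. In GATA2 the orange blocks end before the second start, in GFI1B they stay upstream of the start, and in TAL1 there are orange blocks only.

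Transcript starts were also counted one by one. The lists hold 21 distinct starts of the 10 genes, and a start is listed only where a peak lies within 20 kb of it. Starts without such a peak are not counted, here or among all starts. Of the 21, 14 had a peak centre within 1 kb or a peak across the start in parental cells and 14 in knockout cells. Over all 22201 listed starts the shares were 62.9% and 53.6%. Both lists marked 10 of the 21. Another 4 had the mark in the parental list alone (11% of all starts did) and 4 in the knockout list alone (1.68%). Parental-only starts were both of GFI1B, the downstream one of FLI1 and the most downstream of GATA2. The knockout-only ones were the 3 of TAL1, which share 2 peaks, and the upstream start of RUNX1. At the last, H3K4me3 within 1 kb measured 526 bp in the parental list and 413 bp in the knockout list, so there the difference rests on where the centre of a wide peak of 1179 bp falls. Peaks spanned 4 starts in parental cells and 2 in knockout cells. The share over all listed starts was not computed for this count, so it cannot be set against a background.

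Most knockout peaks overlapped parental ones by at least 1 bp. Within 20 kb of the 10 genes 85 parental and 73 knockout peaks were listed, with 47912 and 23958 bp in all. Of the 73 knockout peaks, 60 overlapped a parental peak (82.2%, Wilson 95% interval 71.9 to 89.3%). Of the 85 parental peaks, 44 overlapped a knockout peak (51.8%, interval 41.3 to 62.1%). Over all peaks these shares were 88.7% and 52.6%. With at least 50% of the peak covered, 68.5% of the knockout peaks overlapped, beside 79.2% of all knockout peaks. The intervals cover counting error only, and neighbouring peaks are not independent. The 15 parental peaks of at least 1000 bp were each overlapped by a knockout peak, as were 96.8% of all parental peaks of that width. Of the 39 under 300 bp 11 were, beside 24.5% of all such peaks. Knockout cells had 1 peak of at least 1000 bp. SPI1, GFI1B and GATA2 had all of their knockout peaks within reach of a parental one, and the 13 knockout peaks without one were at MYB (4), GFI1, ETV6 and TAL1 (2 each), and RUNX1, LMO2 and FLI1 (1 each).

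Of the 9 ratios, 7 lay below and those of SPI1 and LMO2 above the median of all genes. Genes were also ranked by parental width and split into 10 equal classes of 1119, and 7 again lay below the median of their class. RUNX1, GFI1, GATA2, MYB, LMO2, SPI1 and ETV6 all fell in the widest class. Its median was -1.007, beside -1.009 for all genes, so this adds little to the first comparison. RUNX1, at -1.021, was only just below it. Neighbours on the chromosome gave a different picture. Against genes within 1 Mb that share none of its peaks and were marked in both lists, 4 of the 9 were lower than their neighbours' median: ETV6 (-1.72 against -1.46 over 10 neighbours), GFI1B (-1.47 against -1.08 over 26), GATA2 (-1.35 against -0.89 over 24) and MYB (-1.35 against -0.72 over 4). The other 5 were higher. LMO2, at -0.74, had 14 neighbours with a median of -1.47, and FLI1, at -1.16, had 3 with a median of -2.58. For RUNX1, GFI1 and SPI1 the medians were -1.12, -1.19 and -0.84. The 12 neighbours of TAL1 had a median of -0.79, on the narrower side as at other loci.

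**Figure D3:**
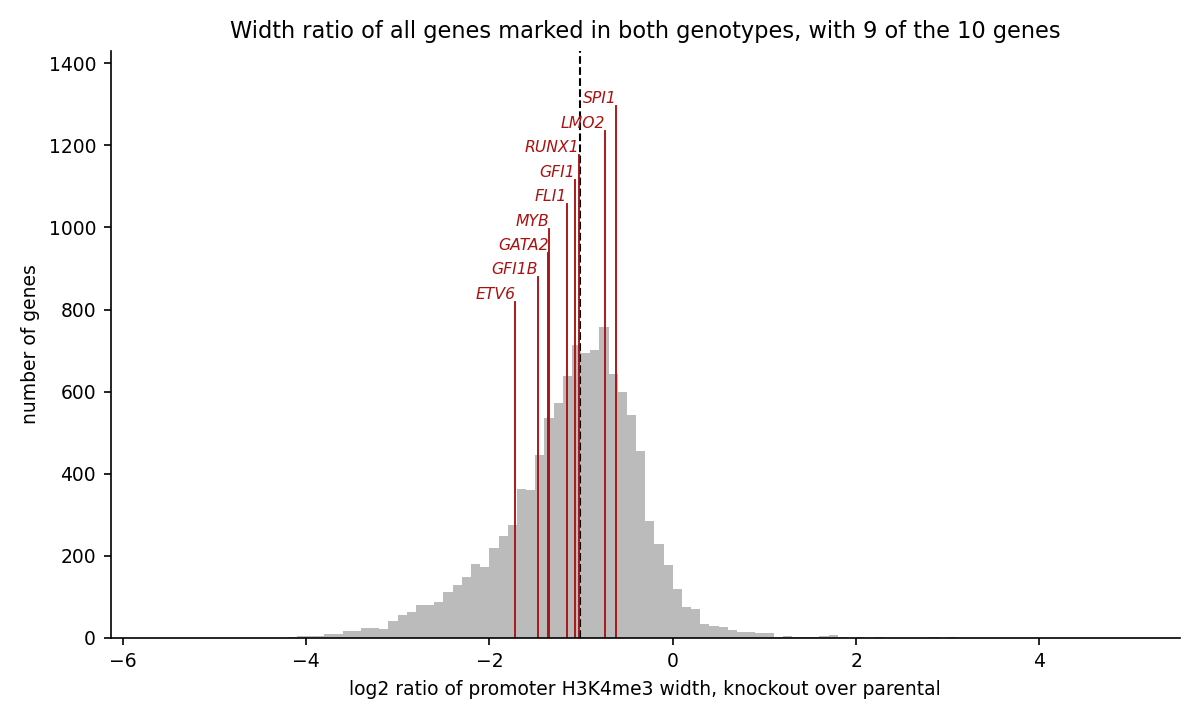
Histogram of the log2 ratio of promoter H3K4me3 width, knockout over parental, for the 11190 genes marked in both genotypes (grey, number of genes per bin), with 9 of the 10 genes as red lines whose heights carry no value and the median of -1.01 as a dashed line. The red lines lie between -1.72 and -0.61, within the bulk of the distribution.

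**Figure D4:**
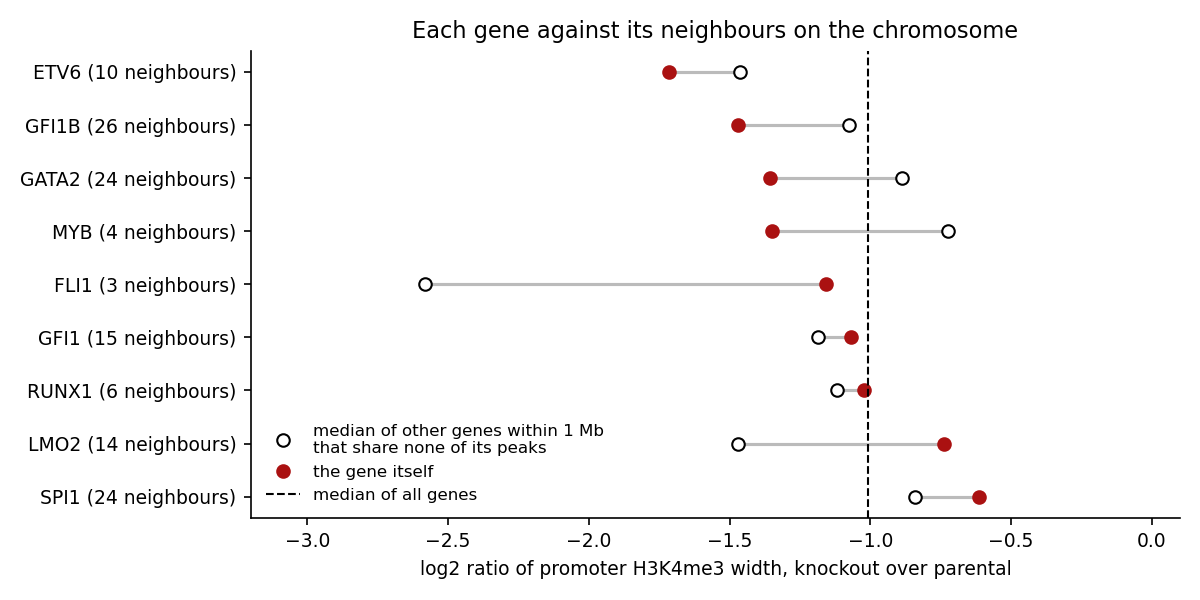
Log2 ratio of promoter H3K4me3 width of 9 genes (filled points) beside the median of the genes within 1 Mb that share none of their peaks (open points), with the median of all genes as a dashed line. ETV6, GFI1B, GATA2 and MYB lie to the left of their neighbours, and the widest gap is that of FLI1, with 3 neighbours.

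H3K27me3 was not called near any of the 10 genes. In both genotypes 0 of 10 had a peak within 20 kb, where 12.9% of all genes had one in parental and 13% in knockout cells. The lists hold only peaks within 20 kb of a transcript start, so peaks farther from any start cannot be seen. The nearest listed peak was 170 kb from TAL1 in parental and 171 kb in knockout cells, at CYP4Z1. Around GATA2 the nearest listed parental peak was 2543 kb away and the nearest listed knockout peak 1090 kb. For RUNX1 the distances were 2462 and 221 kb, the nearest listed knockout peak being one of 843 bp at CLIC6. The unmarked parental state of TAL1 was thus without a called peak of either mark within 20 kb.

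Most paralogues and partners of these factors had narrower promoter regions in knockout cells, as did 95.9% of all genes marked in both lists. Over all those genes 50.6% were narrower by at least 2-fold and the median log2 ratio was -1.01, and the groups below lie near these values. Promoter H3K4me3 was listed for 71.3% of all genes in parental and 62.9% in knockout cells. Only 22 of the 28 paralogues and 28 of the 32 other factors, but all 22 partners, occur in any peak list. Of 28 paralogues, the parental list marked 17 and the knockout list 16, 8 of 16 were narrower by at least 2-fold, and the median log2 ratio was -1.06. RUNX2, the bone-forming relative of RUNX1, had the widest loss, from 5037 to 1380 bp, LMO3 had 445 bp in parental cells only, and no paralogue was wider in knockout cells. Of 22 partners and cofactors 21 were marked in both, 12 of them were narrower by at least 2-fold, and the median was -1.19. LDB1, which joins LMO2 complexes into dimers, had the widest loss, from 4976 to 2075 bp, and CBFA2T2, a corepressor, was slightly wider, 799 against 856 bp. Of 32 other blood transcription factors, 21 and 20 were marked, 8 of 20 were narrower by at least 2-fold, and the median was -0.95. There BCL11A had the widest loss, from 8090 to 1676 bp, NFIL3 the widest gain, from 1274 to 1339 bp, and IKZF3, a lymphoid Ikaros factor, had 1955 bp in parental cells only.

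Promoter H3K27me3 was listed for 0 and 1 of the 28 paralogues, 1 and 1 of the 22 partners and 3 and 2 of the 32 other factors, in parental and knockout cells in turn, beside 5.11% and 4.97% of all genes. At these shares 0 of 10 genes does not set the 10 apart. The following were chosen after their values were seen. MECOM, a stem cell regulator, had 3469 bp in parental cells and 3416 bp in knockout cells, without H3K4me3 in either. EBF1, the B cell factor, had 1234 and 752 bp, and RUNX1T1, the fusion partner of RUNX1 in leukaemia, had 1135 and 351 bp. MYBL1, a relative of MYB, had 2011 bp of H3K27me3 in knockout cells only, beside H3K4me3 of 1677 and 1490 bp. GATA1 and TAL2, the close relatives of GATA2 and TAL1, had a promoter peak of neither mark in either genotype.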

How the data were processed

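Of 6 libraries, the 4 peak lists, 1 per genotype and mark, were used; the 2 inputs were not analysed here. Per the submitters' processing notes, BWA 0.7.10, SAMtools, MACS2 2.1.1 and hg19 were used; settings and the role of the inputs are not given in the sources used here. Per the file headers, the deposited lists give each peak's position, a RefSeq transcript, a distance and a score. The authors' deposited score is a function of distance alone (largest error 5e-13) and was not used. The lists reach 20 kb from a start. Depth is unknown.

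Starts were computed as peak centre minus distance and may be off by 1 bp; no exons were assigned. Gene directions came from the RefSeq table for 7 genes and from general knowledge for SPI1, LMO2 and FLI1, which that table did not match. Distinct peaks with a centre within 5 kb of a start, or spanning it, were summed in width, and a change of at least 2-fold was the size rule. Overlaps used bedtools 2.31.1 (1 bp), the rest Python 3.11.15 with pandas 2.3.3. The code was tested on simulated peaks. With 1 library per group there is no test. All 10 genes are named; from the related lists, those unmarked in 1 genotype and the widest loss and gain. The genes and lists were chosen with earlier results of these data known. Alternatives were other windows, peak filters, joining and overlap rules. A gene of the related lists is not reported here.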

Additional observations from a re-analysis of the deposited data

How the results depend on the processing

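Of 10 alternatives, 8 gave single-gene log2 ratios, and 59 of these 60 ratios stayed below 0. The exception was LMO2, at 0.85 (1348 against 2426 bp) when the parental list was cut to its 6691 widest peaks to equal the covered length of the knockout list; with it 1 of the 9 genes was narrower by at least 2-fold (24.6% of all genes), and the median of all genes was -0.49. With peaks of at least 300 bp, 46 parental and 29 knockout peaks lay within 20 kb, and with peaks up to 500 bp apart joined 29 and 37, with 4 of the 9 genes narrower by at least 2-fold (47.4% of all genes). With a window of 1 kb the median log2 ratio of the 7 genes marked in both was -1.79 (all genes -0.98), and GFI1B and FLI1 were marked in parental cells only. The gap was smaller under other settings. The median was -1.54 (all genes -1.14) with peaks of at least 300 bp and -1.16 (-0.91) with lists of equal length. It was -1.16 (-1.01) with a window of 10 kb and -1.07 (-0.97) with nearest genes only. The last is a median of 7 genes, because GFI1B and FLI1 then had no promoter peak in knockout cells. The knockout list then marked 8 of the 10 genes. Equal covered length gave -0.61 (-0.49), and joined peaks gave -0.95 for both. Peaks that span a start marked 3 parental genes, 2 knockout genes and 1 in both, and 4 and 2 starts. The shares of all genes and starts marked this way in each list were not computed. The gene marked in both was GFI1, with a ratio of -3.41, so 1 was narrower by at least 2-fold. Among all genes 864 were marked in both this way, with a median of -1.01, and 50.2% of them were narrower by at least 2-fold. Peaks that span a start are few by construction. With 50% of a peak covered, 14.1% of parental and 68.5% of knockout peaks overlapped (all peaks 22.7% and 79.2%). At TAL1 the knockout width was 572 bp after joining, 236 bp from spanning peaks and 0 from peaks of at least 300 bp. For other changes the cause was not tested. No paired analysis was possible because each group holds 1 library.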
